A study of Caenorhabditis elegans with 3 samples.

Results

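The genes described here encode the contractile machinery of Caenorhabditis elegans muscle and its attachment to the cell membrane. They were chosen as a list of 39 gene symbols that covers the sarcomere of body wall and pharyngeal muscle, the dense bodies and M-lines that anchor it, and the calcium release channel that triggers contraction. Each symbol was matched to its WormBase identifier in the deposited RNA-seq table, and all 39 were found, among 40669 loci in all. The table was made from poly(A) RNA of whole embryos and holds 1 FPKM value (fragments counted per kilobase of transcript, relative to library size) per locus and genotype, in which the authors had already combined the replicates. The spread between replicates is therefore not known for any value, and the read depth of the libraries is unknown. The authors' own p and q come from a test that is not named, and they do not give that spread. Where 3 FPKM values follow each other below, they stand for wild type, 8rex deletion and DCC mutant, in that order.

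Wild type was strain N2, with 5 replicates per the labels. The 8rex deletion (strain TY5827, 5 replicates) lacks 8 recruitment sites of the dosage compensation complex on the X chromosome, through the alleles rex-8(y737), rex-14(y738), rex-33(y743), rex-32(y572), rex-35(y740), rex-43(y741), rex-47(y671) and rex-48(y742). The DCC mutant (strain TY0810, 3 replicates) has the genotype sdc-2(y93, RNAi), and SDC-2 is the protein that brings the dosage compensation complex (DCC) to X. All worms grew on HT115 bacteria, which carried the empty vector pL4440 for wild type and the 8rex deletion and expressed sdc-2 RNAi for the DCC mutant. Each genotype had 2 replicates of mixed-stage embryos, most of them before the comma stage. The others were older embryos, kept at 20 °C for 7 to 8 hours so that the 3-fold stage prevailed, of which wild type and the 8rex deletion had 3 replicates each and the DCC mutant had 1. With equal weights, older embryos would contribute 60% in wild type and 33.3% in the DCC mutant, but the weights are not given. In whole embryos, fewer muscle cells and less muscle RNA per cell cannot be told apart.

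A sarcomere slides myosin thick filaments past actin thin filaments. Calcium released into the cell binds troponin C, which acts with troponin T and troponin I on tropomyosin to let myosin reach actin. In nematode body wall muscle, thick filaments are held at M-lines and thin filaments at dense bodies, and both are tied through integrin to the basement membrane; the pharynx has a contractile apparatus of its own with its own myosins. Muscle differentiates in the middle of embryogenesis, and the embryo twitches and rolls before it elongates fully. In XX animals the DCC binds both X chromosomes and lowers their transcription, so that X-linked genes, and not autosomal ones, are its direct targets.

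The list falls on both sides of that divide. On X lie 13 of the 39 genes; the 26 autosomal ones are 8 on I, 5 on III, 4 on IV and 9 on V. Of the 39 table rows, 28 hold the muscle gene alone and 11 join it with overlapping or neighbouring genes, so that their FPKM covers all of those genes. The merged rows are 4 on X (tnt-2 with M02D8.3, tnt-3 with sfxn-2, unc-96 with pha-2, mlc-2 with tps-1 and slc-17.1) and 7 on autosomes (myo-1, myo-5, unc-15, unc-22, deb-1, mlc-3 and ttn-1). The deb-1 row includes the ribosomal protein gene rps-4, and its level cannot be read as that of deb-1. All 39 rows passed the filter used for every locus, an average of 1 FPKM or more across genotypes, and the lowest average was 23.6 FPKM. In wild type the levels of the genes with a row of their own ran from 28.4 FPKM for tni-3 to 1215 FPKM for pat-10, above 66.4% and 99.3% of the 15628 loci used.

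**Figure D1:**
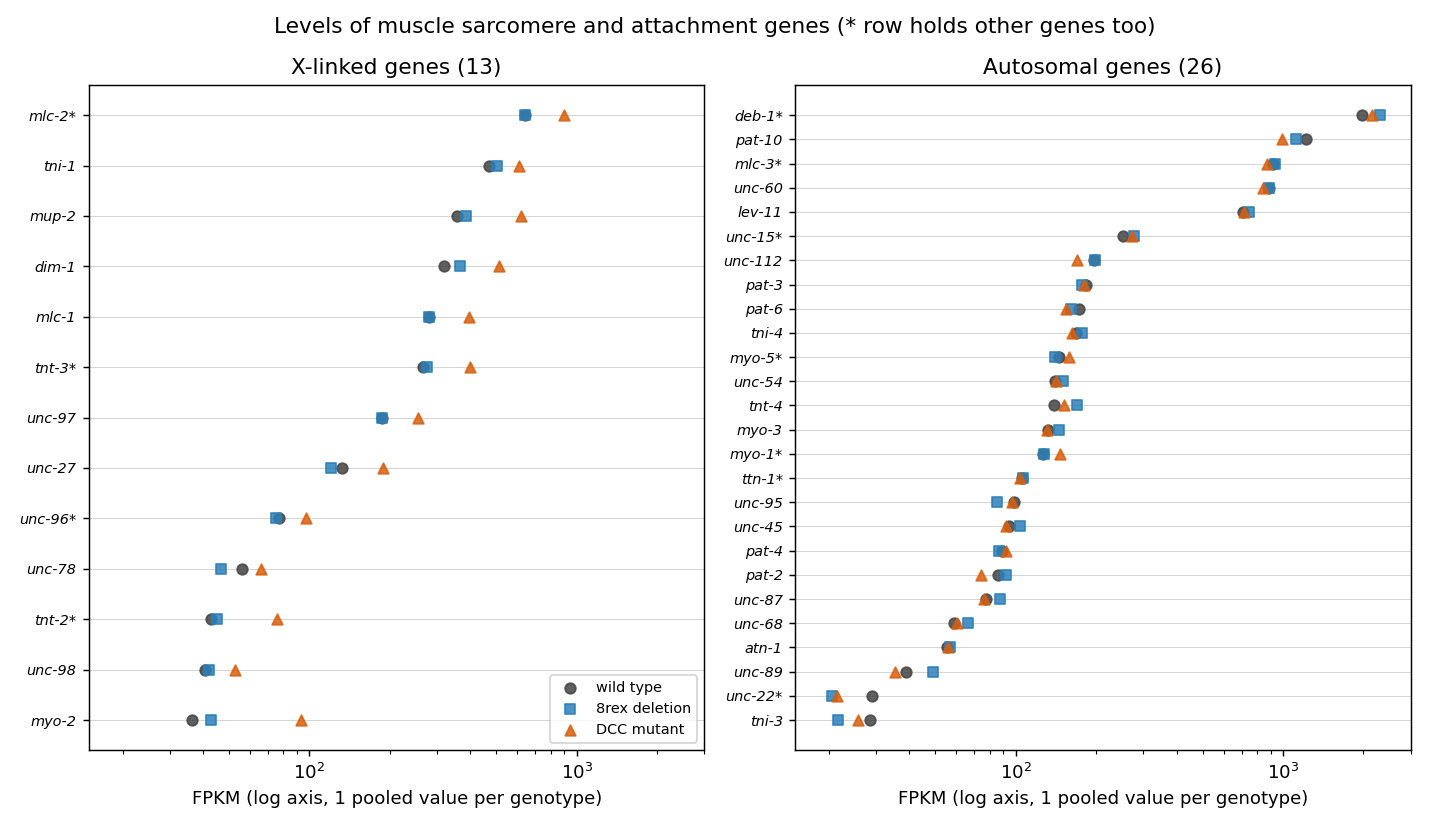
FPKM on a log axis in wild type (circles), the 8rex deletion (squares) and the DCC mutant (triangles) for the 13 X-linked genes (left) and the 26 autosomal genes (right), each point being the authors' single pooled value. On X the triangle lies to the right of both other symbols in all 13 rows. On the autosomes the symbols lie close together, with the triangle to the left of the square in 19 of the 26 rows.

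Differences below are on the log2(FPKM + 1) scale, and called means at least 1.5-fold (0.58) on that scale, with no test. In the DCC mutant all 13 X-linked muscle genes stood above wild type, by 0.23 to 1.34, with a median of 0.50. So did 70.3% of all X-linked loci. Among X-linked loci of 1 coding gene with a mean in the muscle genes' range it was 96.8%, so 13 of 13 is near that share. That range of level runs from 23.6 to 2145 FPKM, its top set by the deb-1 row, and is not matched to single genes. The 26 autosomal muscle genes lay between -0.42 and 0.21 with a median of -0.02, 10 above 0 and 16 below. The differences of X-linked and autosomal muscle genes did not overlap, though the gap was narrow, from 0.21 (the myo-1 row) to 0.23 (unc-78). Those of all loci of 1 coding gene in that range of level did overlap. They ran from -1.19 to 3.37 on X and from -6.19 to 10.25 on autosomes, with medians of 0.57 and -0.02. At 1.5-fold, 5 of the 39 genes were called higher, all of them on X, against 17.6% of all loci, and none was called lower, against 18.4% of all loci. On X alone the 5 of 13 stand beside 39.3% of X-linked loci called higher (1154 of 2939) and the none called lower beside 14.6%, so the share of muscle genes called higher is near that of the chromosome. No autosomal muscle gene was called, where 12.6% of autosomal loci were called higher and 19.3% lower. Among the 3448 autosomal loci that hold 1 coding gene and have a mean within the range of the muscle genes, 6.53% were called higher and 5.39% lower. In the same range of level, 46.5% of 658 X-linked loci were called higher, and their median of 0.57 lay slightly above that of the muscle genes.

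The authors' own test passed few of these genes. In the authors' deposited table, 2 of the 39 muscle genes stood at a p under 0.05 in the DCC mutant, myo-2 and mup-2, both X-linked and higher. The background was 1.39% of 9509 tested loci called higher at that threshold, and 3.95% of the X-linked ones. No q in the authors' deposited table was under 0.05 for any of them, and the lowest was 0.991.

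**Figure D2:**
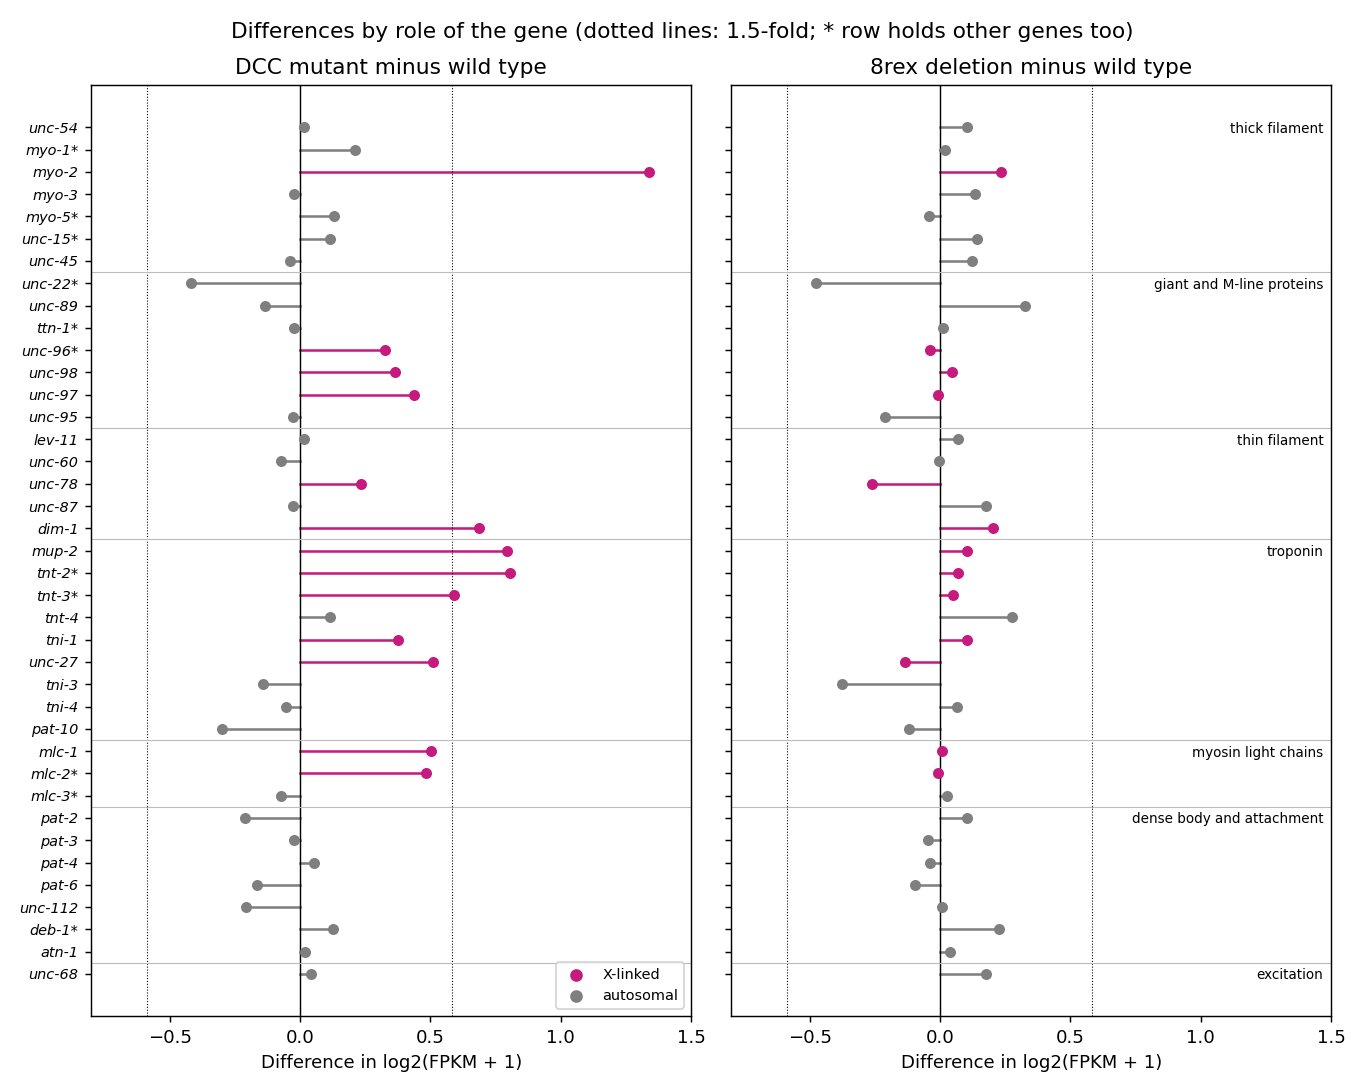
Difference in log2(FPKM + 1) of the DCC mutant (left) and the 8rex deletion (right) from wild type for each of the 39 genes, ordered by role, with X-linked genes in pink and autosomal genes in grey and dotted lines at 1.5-fold. In the left panel all pink points lie at 0.23 or above and all grey points at 0.21 or below, while in the right panel both colours lie on either side of 0 and none reaches a dotted line.

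Among thick filament genes, the pharyngeal myosin gene myo-2 (WBGene00003514, protein-coding, X, 12468061 to 12475348) stood apart. Its values were 36.2, 42.8 and 93.1 FPKM, so that the DCC mutant was high and the other genotypes were close to each other. The DCC mutant was 2.53-fold above wild type on the FPKM + 1 scale, a log2 difference of 1.34 (p = 0.0015 in the authors' deposited table). Of the 658 X-linked loci of 1 coding gene in the muscle genes' range of level, only 6 stood as high or higher, myo-2 included. The autosomal myosin heavy chain genes did not share that difference. The major body wall myosin gene unc-54 (I, 14855901 to 14863482) stood at 140.1, 150.5 and 142 FPKM. For myo-3 (V, 12226817 to 12234343), which encodes the minor body wall myosin at the centre of the thick filament, the values were 133, 146 and 131 FPKM in the same order. The other pharyngeal myosin gene, myo-1, lies in a row of 6 genes that was at 126, 128 and 146 FPKM. The remaining thick filament genes were the paramyosin gene unc-15 (252, 278 and 273 FPKM, shared with sue-1), the myosin chaperone gene unc-45 (94.7, 103.3 and 92.4 FPKM) and myo-5, in a row of 4 genes (145, 141 and 159 FPKM). Their DCC mutant differences lay between -0.04 and 0.13, with p of 0.765 or more in the authors' deposited table.

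Autosomal markers of the pharynx showed no common direction in the DCC mutant. Of the 5 measured autosomal pharyngeal markers (pha-4, ceh-22, ceh-34, pqn-8 and abu-14), 2 were above 0 and 3 below, with a median of -0.15; the X-linked marker marg-1 was above 0, at 1.474, 1.65 and 3.26 FPKM. The transcription factor gene ceh-22, an activator of myo-2 in the pharynx, stood at 38.7, 32.1 and 27.8 FPKM (DCC mutant log2 difference -0.46, p = 0.42 in the authors' deposited table). The troponin genes tnt-4 and tni-4, which serve the pharynx and are autosomal, stood at 0.12 and -0.05. The ratio of myo-2 to tni-4 was 0.215, 0.243 and 0.573 in the order of genotypes given above, as a ratio of FPKM.

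Troponin offered the clearest comparison within a protein family, since its genes are spread over X and autosomes. The body wall troponin T gene mup-2 (WBGene00003495, X, 6408471 to 6410227) was at 357, 384 and 620.0 FPKM (DCC mutant log2 difference 0.79, p = 0.0289 in the authors' deposited table). The X-linked troponin T gene tnt-2, in a row with M02D8.3, stood at 43.0, 45.2 and 75.8 FPKM (difference 0.80; p = 0.0598 in the authors' deposited table). For tnt-3, also X-linked and in a row with sfxn-2, the values were 265, 275 and 399.7 FPKM (difference 0.59; p = 0.274 in the authors' deposited table). All 3 were called higher. The autosomal troponin T gene tnt-4 (V, 1989471 to 1992918) stood at 139.6, 169 and 151 FPKM, and its DCC mutant value lay below that of the 8rex deletion.

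All 4 troponin I genes had rows of their own. The X-linked genes were unc-27 (X, 8789456 to 8790621), at 132, 120.1 and 189 FPKM, and tni-1 (X, 11375887 to 11377470), at 469.5, 505 and 610.0 FPKM. Their DCC mutant differences were 0.51 and 0.38, short of 1.5-fold, with p of 0.525 and 0.34 in the authors' deposited table. The autosomal genes tni-3 (V) and tni-4 (IV) stood at 28.4, 21.7 and 25.7 FPKM and at 168, 176 and 162 FPKM, with DCC mutant differences of -0.14 and -0.05. The troponin C gene pat-10 (I, 5018783 to 5020358) had its lowest value in the DCC mutant (1215, 1119.8 and 988 FPKM; log2 difference -0.30, p = 0.425 in the authors' deposited table).

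Because FPKM is per length, levels can be summed within a family. X-linked genes made up 75.3%, 75.9% and 80.9% of summed troponin I FPKM, with the genotypes in the same order as before. For troponin T the X-linked share was 82.7%, 80.6% and 87.9% over all 4 rows, and 71.9%, 69.4% and 80.4% over mup-2 and tnt-4, the genes with rows of their own. For muscle myosin heavy chains, where myo-2 is the X-linked gene, it was 11.7%, 12.6% and 25.5% over myo-2, myo-3 and unc-54. Ratios between the summed troponin levels differed as well, though the sums join body wall and pharyngeal genes and that of troponin T includes merged rows. Summed troponin T over troponin I was 1.01, 1.06 and 1.26 in that order, whereas troponin I over the single troponin C gene of the list, pat-10, was 0.657, 0.735 and 0.998. The ratio of mup-2 to pat-10, whose proteins act in body wall muscle and which need no merged row, was 0.294, 0.343 and 0.627 in the same order. These ratios concern transcripts of pooled libraries and have no error estimate.

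**Figure D3:**
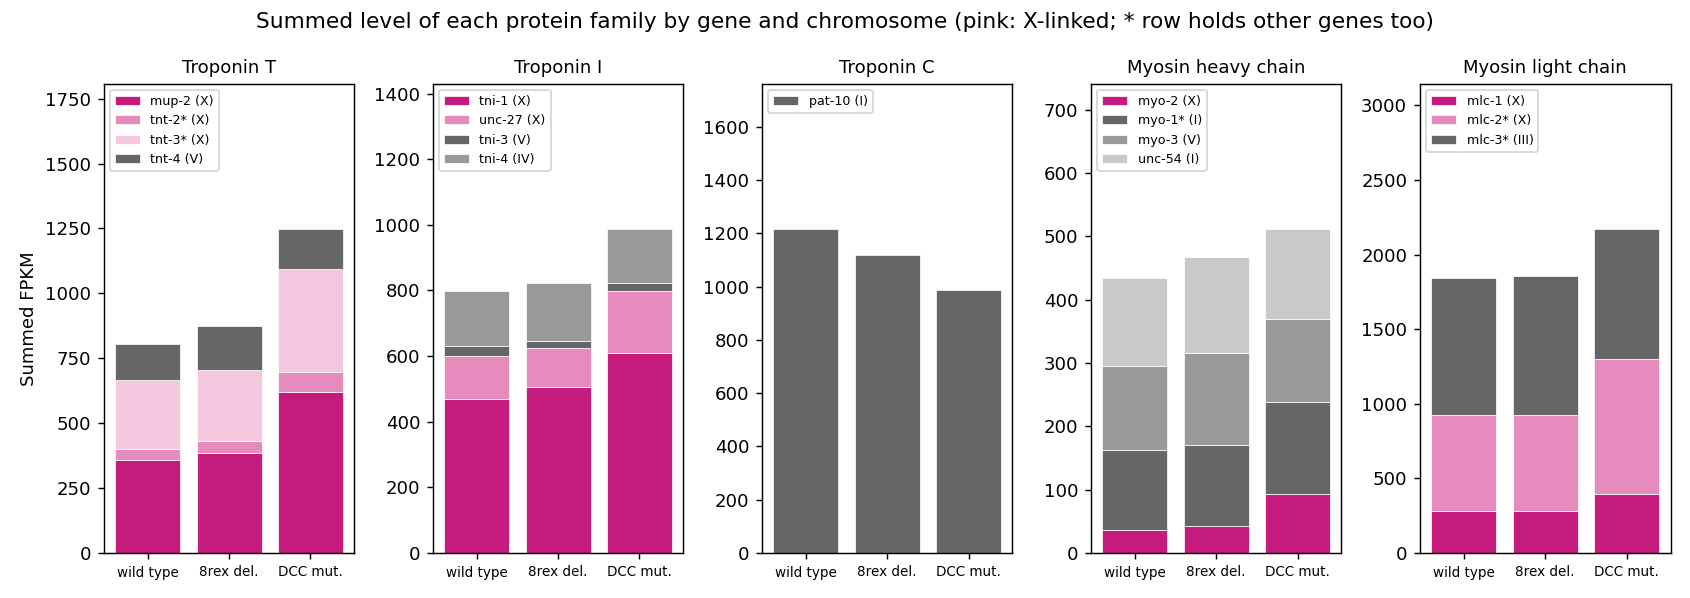
Summed FPKM of the troponin T, troponin I, troponin C, myosin heavy chain and myosin light chain genes in each genotype, stacked by gene, with X-linked genes in pink and autosomal genes in grey. The pink part is taller in the DCC mutant in the 4 families that have X-linked genes, and the grey column of troponin C is lower there (988 against 1215 FPKM).

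Thin filament genes on the autosomes had nearly level values. The tropomyosin gene lev-11 (I) stood at 708, 743 and 716 FPKM. The row of unc-60 (V), which encodes the actin-severing proteins of the ADF/cofilin family, was at 887, 884 and 843 FPKM. The calponin-related gene unc-87 (I) stood at 77.5, 87.6 and 76.1 FPKM. The X-linked gene dim-1 (X, 8050466 to 8058220), which encodes an immunoglobulin-domain protein of the muscle attachment region, was called higher, at 319, 367 and 514 FPKM (log2 difference 0.69, p = 0.057 in the authors' deposited table). At the other end, unc-78 (X, 3408674 to 3411615), which encodes the actin-interacting protein that helps cofilin, had the smallest difference of the X-linked muscle genes. It stood at 55.9, 46.6 and 65.9 FPKM (difference 0.23, p = 0.851 in the authors' deposited table). Of the 658 X-linked loci of 1 coding gene in the muscle genes' range of level, 91.8% stood as high as unc-78 or higher.

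The myosin light chain genes split in the same way. The X-linked gene mlc-1 (X, 17459210 to 17460778) stood at 279.7, 281 and 397 FPKM and the row of mlc-2 at 643, 640.4 and 900.4 FPKM. Their DCC mutant differences were 0.50 and 0.48, but these genes are close copies of each other that lie side by side, and how shared reads were split between them is not given. The autosomal mlc-3 row (III), which also holds rpc-2 and hach-1, stood at 919, 937 and 873 FPKM, a difference of -0.07.

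The giant and M-line proteins also come from both kinds of chromosome. On X, the PINCH-type LIM protein gene unc-97 (X, 5593133 to 5594965) stood at 187, 186 and 254 FPKM. The zinc-finger protein gene unc-98 (X, 7570374 to 7573619) was at 40.7, 42.0 and 52.6 FPKM, and unc-96, which encodes another M-line protein and shares its row with pha-2, at 77.1, 75.1 and 96.99 FPKM. Their differences of 0.33 to 0.44 were short of 1.5-fold, with p between 0.212 and 0.677 in the authors' deposited table. On the autosomes, the LIM protein gene unc-95 (I) stood at 98.2, 84.8 and 96.5 FPKM and the titin-like gene ttn-1 (V, in a row of 3 genes) at 105.4, 106 and 104 FPKM. The obscurin homologue unc-89 (I) stood at 38.8, 48.9 and 35.3 FPKM. The twitchin gene unc-22 (IV, in a row with ZK617.7) was lower in both mutants, at 28.9, 20.5 and 21.4 FPKM, with p of 0.273 and 0.442 in the authors' deposited table. Both comparisons share the wild-type value.

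The 7 dense body and attachment genes are all autosomal. None was called in any comparison. Of the 3448 autosomal loci of 1 coding gene in the muscle genes' range of level, 6.53% were called higher and 5.39% lower in the DCC mutant against wild type. In the 8rex deletion 42 were called higher and 43 lower, and in the DCC mutant against the 8rex deletion 276 and 172. With 7 genes, 0 called is near the background in each comparison. The integrin genes pat-2 (alpha subunit, III) and pat-3 (beta subunit, III) stood at 85.7, 92.1 and 73.9 FPKM and at 183, 177 and 179.8 FPKM. The cytoplasmic partners were pat-4, the integrin-linked kinase gene (88.7, 86.5 and 92.1 FPKM), pat-6, the parvin gene (173, 161 and 154 FPKM), and unc-112, the kindlin gene (197, 198 and 170.1 FPKM). In the same order, the alpha-actinin gene atn-1 stood at 55.3, 56.8 and 56.0 FPKM. The row that holds the vinculin gene deb-1 stood at 1971, 2309 and 2154.5 FPKM. Over the 7 dense body and attachment genes the DCC mutant differences ran from -0.21 to 0.13 with a median of -0.02, and the lowest p in the authors' deposited table was 0.558. Their partner at adhesions, unc-97, is the X-linked one, and the ratio of unc-97 to pat-4 was 2.11, 2.15 and 2.76 in that order. The ryanodine receptor gene unc-68 (V), which releases calcium from internal stores, stood at 58.6, 66.4 and 60.3 FPKM.

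In the 8rex deletion no muscle gene was called in either direction, where 13.5% of all loci were called higher and 10.8% lower. Among X-linked loci of 1 coding gene in the muscle genes' range of level calls were rare here, with 0.304% higher and 1.37% lower. The 13 X-linked muscle genes lay between -0.26 and 0.23 with a median of 0.05, 8 above 0 and 5 below, and the 26 autosomal ones between -0.48 and 0.33 with a median of 0.03, 17 above and 9 below. The X-linked range lay inside the autosomal one, and the X-linked median lay 0.01 above the autosomal one. Without merged rows that difference was -0.02. Of all loci of 1 coding gene in the muscle genes' range of level, 33.7% on X and 43.0% on autosomes were above 0. Their medians, -0.06 and -0.03, lay below 0, where those of the muscle genes lay above. No muscle gene had a p under 0.05 in the authors' deposited table, where 0.459% of 9378 tested loci did, and the lowest was p = 0.273 for the unc-22 row. On X, unc-78 had the lowest difference at -0.26 and myo-2 the highest at 0.23. These were also the lowest and the highest in the DCC mutant, but both comparisons use the same wild-type values.

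The DCC mutant was then set against the 8rex deletion, which had the same numbers of replicates per stage as wild type. All 13 X-linked muscle genes were again above 0, by 0.27 (tni-1) to 1.104 (myo-2) with a median of 0.49. Above 0 in this comparison were also 69.6% of all X-linked loci. Of those of 1 coding gene in the muscle genes' range of level it was 97.3%. The autosomal muscle genes had a median of -0.08 and lay between -0.46 (unc-89) and 0.24 (tni-3), 7 above 0 and 19 below. Of autosomal loci of 1 coding gene in the muscle genes' range of level, 50.6% were above 0. At 1.5-fold 4 were called higher, myo-2, mup-2, tnt-2 and unc-27, and none lower, against 18.7% and 20.8% of all loci. Called higher were 43.1% of X-linked loci and 57.9% of those of 1 coding gene in the muscle genes' range of level. The difference of unc-27 was 0.65 here and 0.51 against wild type, whereas dim-1 and tnt-3 fell short of 1.5-fold (0.48 and 0.54). The deposited table gives no p for this comparison.

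**Figure D4:**
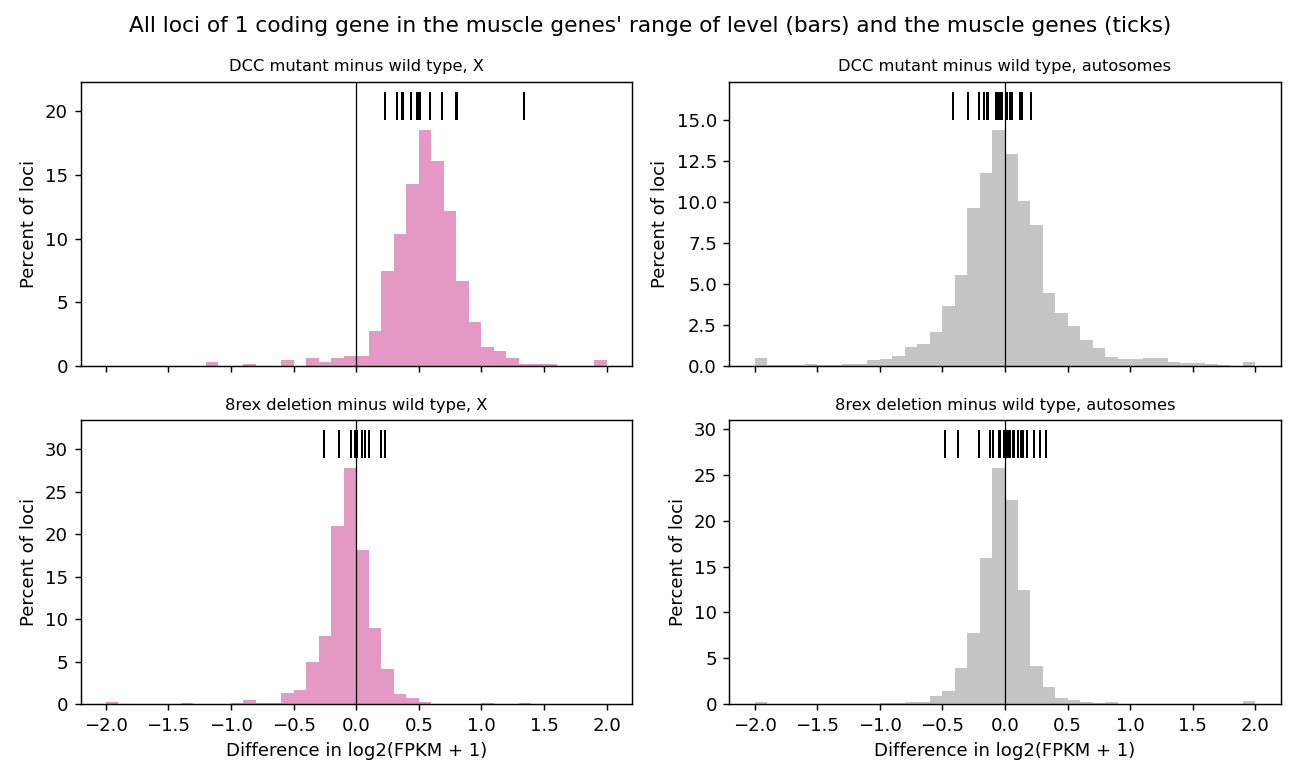
Percent of loci by difference in log2(FPKM + 1), in steps of 0.1, for the 658 X-linked (left) and 3448 autosomal (right) loci that hold 1 coding gene and lie in the muscle genes' range of level, with the muscle genes as ticks, for the DCC mutant (top) and the 8rex deletion (bottom) against wild type; values beyond 2 are drawn in the end bars. The X-linked ticks lie within the shifted X-linked bars (median 0.57) with myo-2 at 1.34 in their sparse upper tail, and the autosomal ticks lie around 0.

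Each X-linked muscle gene was also set beside its surroundings, the loci of 1 coding gene whose annotated start lies within 250 kb (33 to 65 loci each). The median of these neighbours in the DCC mutant lay between 0.41 and 0.60 at all 13 positions, from 0.611 Mb (unc-96) to 17.5 Mb (mlc-1). Of the muscle genes 8 were above and 5 below the median of their neighbours. Above the upper quartile of their neighbours stood mup-2 (0.79 beside a median of 0.47) and myo-2 (1.34 beside 0.60, with 5 of 45 neighbours as high or higher), and below the lower quartile stood unc-78 (0.23 beside 0.54). The other 10 lay within the interquartile range. Neighbours of the 26 autosomal muscle genes had medians between -0.25 and 0.12, and 13 of the 26 genes were above them.

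**Figure D5:**
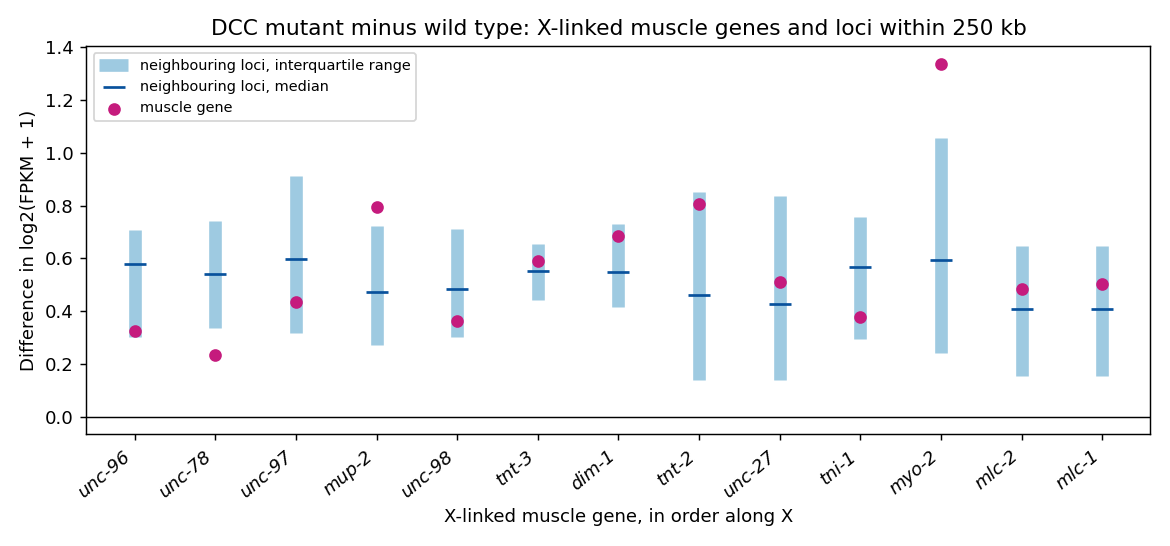
Difference in log2(FPKM + 1) between DCC mutant and wild type for the 13 X-linked muscle genes (points) in their order along X, with the median (dash) and interquartile range (bar) of the loci within 250 kb. Most points lie inside the bars, mup-2 and myo-2 lie above them and unc-78 lies below.

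A wider list of genes was divided by chromosome in a like way. Of 61 further genes chosen for muscle structure, excitation and development, 60 passed the filter, in 58 rows. The choice is not confined to muscle, since vab-10 is also among the markers of epidermis and seam used below. The 12 X-linked ones were all above 0 in the DCC mutant, with a median of 0.64 and 7 called higher. Of all X-linked loci 70.3% were above 0 and 39.3% were called higher. Among those of 1 coding gene in the range of level of the 39 genes it was 96.8% and 46.5%, so 12 of 12 above 0 is near that share. The highest were the potassium channel gene slo-2 (14.8, 16.2 and 27.1 FPKM), the acetylcholine receptor gene lev-8 in a merged row (51.4, 51.5 and 91.6 FPKM) and the hemicentin gene him-4 (40.4, 38.5 and 67.7 FPKM), with differences of 0.83, 0.82 and 0.73. The lowest was the X-linked actin gene act-4, at 1198, 1179 and 1423 FPKM (0.25). The 48 autosomal genes had a median of -0.002, with 24 above 0, 24 below, none called higher and 2 called lower (unc-49 and unc-103), beside 12.6% and 19.3% of all autosomal loci. Among autosomal loci of 1 coding gene in the range of level of the 39 genes, 6.53% were called higher and 5.39% lower. The 2 of 48 called lower are near that share, though some genes of the wider list lay below that range. Among the 48 were the myogenic factor genes hlh-1 (37.2, 35.6 and 39.2 FPKM) and unc-120 (78.7, 87.8 and 96.3 FPKM), while the third such factor gene, hnd-1, lies on X (14.5, 13.3 and 24.4 FPKM).

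The lowest autosomal genes of this wider list were the GABA receptor gene unc-49 in a merged row, at 366, 61.3 and 28.97 FPKM, the potassium channel gene unc-103 with C30D11.6 (35.5, 50.9 and 22.2 FPKM) and the calcium pump gene sca-1 (861, 840.5 and 585 FPKM). The unc-49 row was the single one of the wider list at a p under 0.05 in the authors' deposited table, in both mutants. In the 8rex deletion the 12 X-linked genes of the wider list were 6 above 0 and 6 below, with a median of -0.005. The autosomal ones had a median of 0.10, and their highest were dyb-1 (0.55), unc-103 (0.51) and unc-29 (0.46). Below 0 the next after unc-49 were the X-linked genes sup-12 (-0.34) and hnd-1 (-0.12).

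Other values of the libraries moved with the DCC mutant. All 18 measured maternal and early-embryo markers, all autosomal, were above wild type there (median 1.06, 14 called higher beside 12.6% of autosomal loci; summed levels 667, 705 and 1407 FPKM). Of 14 late-embryo cuticle genes 13 were below wild type, with a median of -0.29 and 3 called lower. Their summed levels were 16454, 17071 and 12856 FPKM, mostly from dpy-14, sqt-3 and dpy-17 (5737, 4637 and 4467 FPKM in wild type). All 8 autosomal intestine markers were below (median -0.43, 2 called lower), while the X-linked ones, cpr-6 and the elt-2 row, were above (0.77 and 0.20). Of all 12689 autosomal loci used, 6762 were below 0 and 19.3% were called lower. The part of embryo stage in the muscle values was not tested. The 11 autosomal neuron markers had a median of 0.05, with 7 above 0 and 4 below. Of the 8 autosomal markers of epidermis and seam 7 were below and 1 above (median -0.11, 2 called lower beside 19.3% of autosomal loci). The targeted gene sdc-2 stood at 18.04, 16.01 and 10.98 FPKM (DCC mutant p = 0.505 in the authors' deposited table). The DCC mutant combines the allele y93 with sdc-2 RNAi, and the part of each in this value was not tested.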

How the data were processed

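The submitters' processing notes name cutadapt 1.2.1, TopHat2 2.1.1, Cufflinks 2.2.1 and build ce11; for their roles and settings, the annotation and strand, the sources used here say nothing. In 1 table the authors deposited FPKM, 1 value per genotype with replicates combined, and a log2 fold change, p-value and q-value of each mutant against wild type, per the file headers, which name no test. Symbols, coordinates (1-based) and strands came from Ensembl release 115 on the same assembly. Row order follows strand: 99.6% of 35672 rows of 1 gene lay in the block of their annotated strand. For unc-89 and unc-112, each with a second row in the other strand's block, the row on the gene's strand was used.

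Loci that carry a gene identifier and average 1 FPKM or more were kept (2939 on X, 12689 on autosomes), and differences were taken as log2(FPKM + 1), which understates the change of low genes, the more so the closer they are to 0 FPKM. The planned tests over replicates could not be made, and no test was run. All 39 genes are reported; of the wider muscle list, genes under an authors' p of 0.05 or among the 3 largest differences in either direction are named, and act-4, hlh-1, unc-120 and hnd-1 were added after their values were seen. The ratios and the summed families were also chosen after values were seen. The genes and lists were chosen with earlier results of these data known. The calculation was tested on simulated data. Python 3.11.15, numpy 2.4.6, pandas 2.3.3 and matplotlib 3.10.9 were used.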

Additional observations from a re-analysis of the deposited data

How the results depend on the processing

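No paired analysis was possible because the table holds 1 value per genotype, and for the same reason no replicate could be left out. Of 86 values recomputed under other settings, 75 kept their count within 1.5 times or their median within 0.1. The X-linked minus autosomal median of the muscle genes lay between 0.52 and 0.53 in the DCC mutant against wild type, between 0.56 and 0.61 against the 8rex deletion, and between -0.02 and 0.02 in the 8rex deletion, over other pseudocounts, filters, scalings, rows of 1 gene and opposite-strand rows. The other filters could change no value, since the lowest mean of a muscle gene was 23.6 FPKM. Centring on autosomal loci shifts both medians alike, and scaling to equal sums nearly alike. These settings are therefore no check on the difference of medians, though they are among the 75. The count called higher in the DCC mutant against wild type was 3 with rows of 1 gene only, in place of 5, since tnt-2 and tnt-3 have merged rows. It was 4 with a pseudocount of 5 FPKM, and 4 with genotypes scaled to equal sums of FPKM. The fold needed for a call was also varied after the data were seen. At 2-fold, 1 gene was higher in the DCC mutant against wild type (8.55% of all loci) and 1 against the 8rex deletion (8.63%). At 1.2-fold, 12 were higher and 2 lower in the DCC mutant against wild type (31.2% and 29.9% of all loci), 2 were higher and 2 lower in the 8rex deletion (22.3% and 21%), and 13 were higher and 2 lower in the DCC mutant against the 8rex deletion (32.7% and 31.4%). The opposite-strand rows of unc-89 and unc-112 were tried after the data were seen. That of unc-112 averaged 0.57 FPKM and failed the filter, so unc-112 was left out of this setting. Here 1 gene was called lower in the 8rex deletion: the second unc-89 row, at 11.99, 5.04 and 12.6 FPKM. That row, at 1.17, also made 5 called higher in place of 4 in the DCC mutant against the 8rex deletion. With the authors' q in place of p, 0 genes were under 0.05 in the DCC mutant. Depth is unknown, so no limit on small differences can be given.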
